A study of Mus musculus with 56 samples.

Results

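The nuclear genes that encode aminoacyl-tRNA synthetases were followed in visceral adipose tissue (VAT) of mice fed at opposite times of day. Members were the protein-coding genes whose symbol is a 1-letter amino acid code followed by "ars", with the phenylalanine subunit genes Farsa and Farsb added, and a final 2 marked the mitochondrial enzymes. The rule found 36 of the 25939 genes in the expression table, of which 19 encode cytosolic and 17 encode mitochondrial enzymes. Female C57BL/6J mice of 9 weeks had been kept for 7 days with food restricted to the day (daytime-restricted feeding, DRF) or to the night (NRF, the reference), after 7 days of entrainment to 12 h of light and 12 h of darkness with chow always available. VAT was taken at ZT0, ZT4, ZT8, ZT12, ZT16, ZT20 and ZT24, where ZT0 is lights on and ZT12 is lights off, from 4 mice per regimen and time point, which gave 14 groups and 56 libraries. The groups share strain, sex and age and differ in the hours of feeding and of sampling, and RNA came from whole tissue, so that fewer cells of a type and less RNA per cell cannot be told apart. The labels name the 4 libraries of a group only as separate samples, and p-values measure the spread between them.

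An aminoacyl-tRNA synthetase joins an amino acid to the tRNA that carries the matching anticodon, the step at which the genetic code is read. Cytosolic enzymes supply the ribosomes that translate nuclear messages, and the mitochondrial enzymes, made from nuclear genes and imported, supply the organelle's own ribosomes, which make a few subunits of the respiratory chain. Gars and Kars each encode both forms of their enzyme, so that no separate mitochondrial gene exists for glycine or lysine. Many cytosolic synthetase genes are known targets of ATF4, the transcription factor of the integrated stress response, and the adipocyte is a cell in which insulin and amino acids raise protein synthesis after a meal. The rule does not reach Eprs, the fused glutamate and proline enzyme of the cytosol, which is given with the partner genes.

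Promoter windows of the members were searched for short motifs, as a description of their sequence. RefSeq windows on GRCm38.p6, from 250 bases before to 50 bases after a transcription start, were found for 26 members, 12 cytosolic and 14 mitochondrial, and for 7 cytosolic and 3 mitochondrial members there was none. Aars2 had a pair of windows, and a gene counts once if any of its windows holds the motif. Both strands were searched for 3 motifs. The C/EBP-ATF response element TGATGNAA was present in 5 of 12 cytosolic genes (41.7%), in 0 of 14 mitochondrial genes, in 4.51% of all 27025 genes with a window and in 3.97% of all 32851 windows. The E-box CACGTG was present in 4 of 12 cytosolic genes, 1 of 14 mitochondrial genes, 8.09% of all genes and 7.15% of all windows. The ETS core CCGGAAG was present in 5 of 12 and 4 of 14, in 9.93% of all genes and in 8.86% of all windows. No test between the classes was run. None of these motifs contains another of them. Windows are printed for the 5 cytosolic genes with the response element, which include Iars, the member with the widest daily swing, and for Cars2 and Mars2, the mitochondrial members with the widest swings. Capitals mark the motif matches on either strand, and each line runs 5′ to 3′ on the strand of the gene. The windows lie at chr13:49681880-49682179 (plus strand) for Iars, chr15:11399609-11399908 (minus) for Tars, chr4:129189653-129189952 (plus) for Yars, chr8:111033592-111033891 (plus) for Aars, chr6:55037751-55038050 (plus) for Gars, chr8:11550722-11551021 (minus) for Cars2 and chr1:55236927-55237226 (plus) for Mars2.
Iars: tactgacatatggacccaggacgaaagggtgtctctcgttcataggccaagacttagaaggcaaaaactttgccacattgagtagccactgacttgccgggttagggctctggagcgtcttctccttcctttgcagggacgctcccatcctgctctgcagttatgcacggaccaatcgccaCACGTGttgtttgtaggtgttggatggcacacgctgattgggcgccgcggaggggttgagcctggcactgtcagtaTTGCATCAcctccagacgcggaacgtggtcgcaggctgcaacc
Tars: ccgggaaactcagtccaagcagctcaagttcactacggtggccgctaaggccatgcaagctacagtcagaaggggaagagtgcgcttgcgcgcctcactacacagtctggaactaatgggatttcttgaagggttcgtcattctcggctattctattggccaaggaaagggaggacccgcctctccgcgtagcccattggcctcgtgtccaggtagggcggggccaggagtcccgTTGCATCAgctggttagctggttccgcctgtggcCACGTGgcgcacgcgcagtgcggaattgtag
Yars: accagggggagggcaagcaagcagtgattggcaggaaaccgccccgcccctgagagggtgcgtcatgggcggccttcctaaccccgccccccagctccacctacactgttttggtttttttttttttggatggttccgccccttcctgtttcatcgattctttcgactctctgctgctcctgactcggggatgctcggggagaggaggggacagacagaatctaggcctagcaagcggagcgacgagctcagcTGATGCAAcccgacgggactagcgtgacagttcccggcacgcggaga
Aars: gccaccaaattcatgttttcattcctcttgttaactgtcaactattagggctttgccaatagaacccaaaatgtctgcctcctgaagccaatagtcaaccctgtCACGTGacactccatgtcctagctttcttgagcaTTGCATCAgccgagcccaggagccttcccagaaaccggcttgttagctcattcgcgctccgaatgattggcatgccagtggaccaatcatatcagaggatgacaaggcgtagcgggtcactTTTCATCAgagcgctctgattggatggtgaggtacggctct
Gars: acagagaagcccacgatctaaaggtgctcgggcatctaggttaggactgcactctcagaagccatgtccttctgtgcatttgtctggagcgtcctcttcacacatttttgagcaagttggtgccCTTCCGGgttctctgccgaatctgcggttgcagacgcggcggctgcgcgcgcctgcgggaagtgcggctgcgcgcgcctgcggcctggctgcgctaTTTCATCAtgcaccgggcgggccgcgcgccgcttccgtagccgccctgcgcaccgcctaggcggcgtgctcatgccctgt
Cars2: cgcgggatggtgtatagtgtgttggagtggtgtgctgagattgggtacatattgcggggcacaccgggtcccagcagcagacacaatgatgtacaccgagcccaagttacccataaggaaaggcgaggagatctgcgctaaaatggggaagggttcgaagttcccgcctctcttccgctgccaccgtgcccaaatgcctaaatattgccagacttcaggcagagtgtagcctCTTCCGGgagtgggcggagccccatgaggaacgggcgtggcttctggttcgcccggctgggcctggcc
Mars2: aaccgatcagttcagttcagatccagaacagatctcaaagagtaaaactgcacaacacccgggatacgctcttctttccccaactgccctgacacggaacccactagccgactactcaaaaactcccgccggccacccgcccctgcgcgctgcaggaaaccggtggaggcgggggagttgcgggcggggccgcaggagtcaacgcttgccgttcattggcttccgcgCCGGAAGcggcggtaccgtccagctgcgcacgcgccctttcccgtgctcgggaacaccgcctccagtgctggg
The response element of Iars began 7 bases after the start and its E-box 69 bases before it. In Tars the order was reversed, with the response element 15 bases before the start and the E-box 19 bases after it. Aars held the response element at 112 bases before and at 9 bases after the start. A match describes the letters of a window and no binding was measured.

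Libraries held 30913791 to 40932442 recovered gene reads (median 35267513), and every member was counted in every library, from 165 reads at the lowest for Pars2 to 6908 at the highest for Iars2. Levels are given as log2(CPM + 1), where CPM stands for reads scaled to the effective size of each library, and fold changes on that scale understate the change of low genes slightly. All 6 adipocyte markers were detected, with a summed level of 8477 to 29642 CPM. In the markers of other cell types 2 libraries stood apart. The summed level of 6 epithelial markers was 505 CPM in DRF ZT8 replicate 1 and 1278 CPM in DRF ZT0 replicate 4, against 9.66 to 71.3 CPM in the other libraries, and their adipocyte markers were the lowest, at 8477 and 12850 CPM against 15070 to 29642 CPM. The DRF ZT8 library also had the highest proliferation markers, at 211 CPM. Several calls that these libraries changed are given with and without them. Liver markers reached 1539 CPM in 1 NRF library and muscle markers 525 CPM in another. The median adipocyte sum was lower in the feeding phase in both regimens, at 17868 CPM at NRF ZT20 against 21422 CPM at ZT8, and at 18089 CPM at DRF ZT8 against 23698 CPM at ZT20, and the part of this in the results below was not tested.

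Cytosolic enzymes were the more abundant class per length of message. Mean CPM per kilobase of exon ranged from 3.62 for Cars to 36.5 for Nars among the cytosolic genes (median 12.0) and from 1.25 for Mars2 to 16.4 for Iars2 among the mitochondrial genes (median 3.73). After Nars, the asparagine enzyme, came Gars, the glycine enzyme, at 27.8 CPM per kilobase, and the cytosolic gene next to the lowest was Farsa, the catalytic subunit of the phenylalanine enzyme, at 5.57. Among the mitochondrial genes Iars2, the isoleucine enzyme, was followed by Rars2, the arginine enzyme, at 9.43, and the lowest after Mars2 were Nars2 and Wars2, at 1.71 and 1.72 CPM per kilobase. For 33 members the exon length was the union of all annotated exons, and for Nars, Hars and Lars, where that length did not give whole reads, it was inferred from the deposited values. Union lengths count every isoform, so that genes with many isoforms read low. Summed over the members, the cytosolic genes were at 981 ± 61.5 CPM (SD, n = 4) at NRF ZT8 and 1236 ± 62.3 at NRF ZT20, ranges of 900 to 1050 and 1148 to 1283 that did not overlap. The mitochondrial sums were 417 ± 32.4 and 450 ± 8.64 CPM at the same times, ranges of 386 to 462 and 439 to 460 that overlapped. Under DRF the cytosolic sum was 1228 ± 101 CPM at ZT8 and 1092 ± 88.0 at ZT20, and the mitochondrial sum ran the other way, with 441 ± 50.0 at ZT8 and 502 ± 42.4 at ZT20, all with overlapping ranges.

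**Figure D1:**
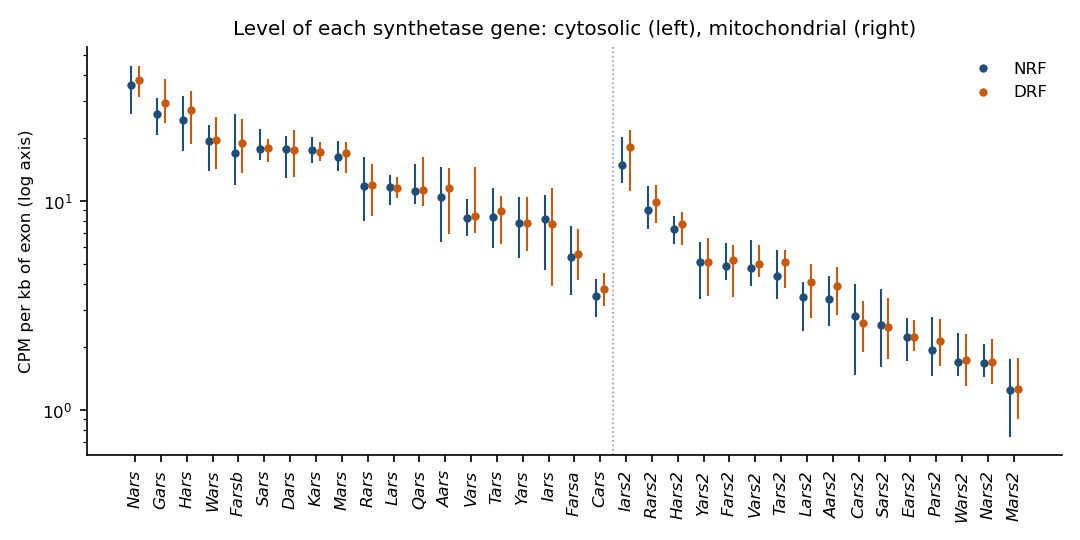
Level of the members in CPM per kilobase of exon on a log axis, for NRF and DRF, with the median as a point and the lowest and highest of 28 libraries as a line. Over all libraries the cytosolic means run from 3.62 (Cars) to 36.5 (Nars) and the mitochondrial means from 1.25 (Mars2) to 16.4 (Iars2).

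Under NRF 12 of 19 cytosolic synthetase genes had a fitted peak at night, the feeding phase, with the cosine test passed. That count has no share of all genes beside it and is given as a description. A 24-h rhythm by JTK_CYCLE and Lomb-Scargle with Benjamini-Hochberg adjustment was called for 12 of 19 cytosolic genes and 6 of 17 mitochondrial genes, where 25.0% of all genes were called. Among genes of at least 1 CPM the background was 42.6%, with 13 cytosolic and 7 mitochondrial members called, so that the mitochondrial share was near the background. The cytosolic genes called were Aars, Cars, Farsa, Farsb, Hars, Iars, Nars, Qars, Rars, Tars, Wars and Yars. The mitochondrial genes were Cars2, Ears2, Mars2, Rars2, Tars2 and Yars2. Under DRF the calls were fewer, at 6 cytosolic genes (Farsa, Iars, Rars, Tars, Vars and Yars) and 2 mitochondrial genes (Cars2 and Wars2), with a background of 12.8%. With at least 1 CPM they were 8 and 3, with a background of 23.1%. The DRF calls changed with the replicates, and without any 1 replicate number 0 to 2 cytosolic and 0 to 1 mitochondrial genes were called. Without the libraries that stood apart the DRF calls were 7 cytosolic and 2 mitochondrial genes.

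**Figure D2:**
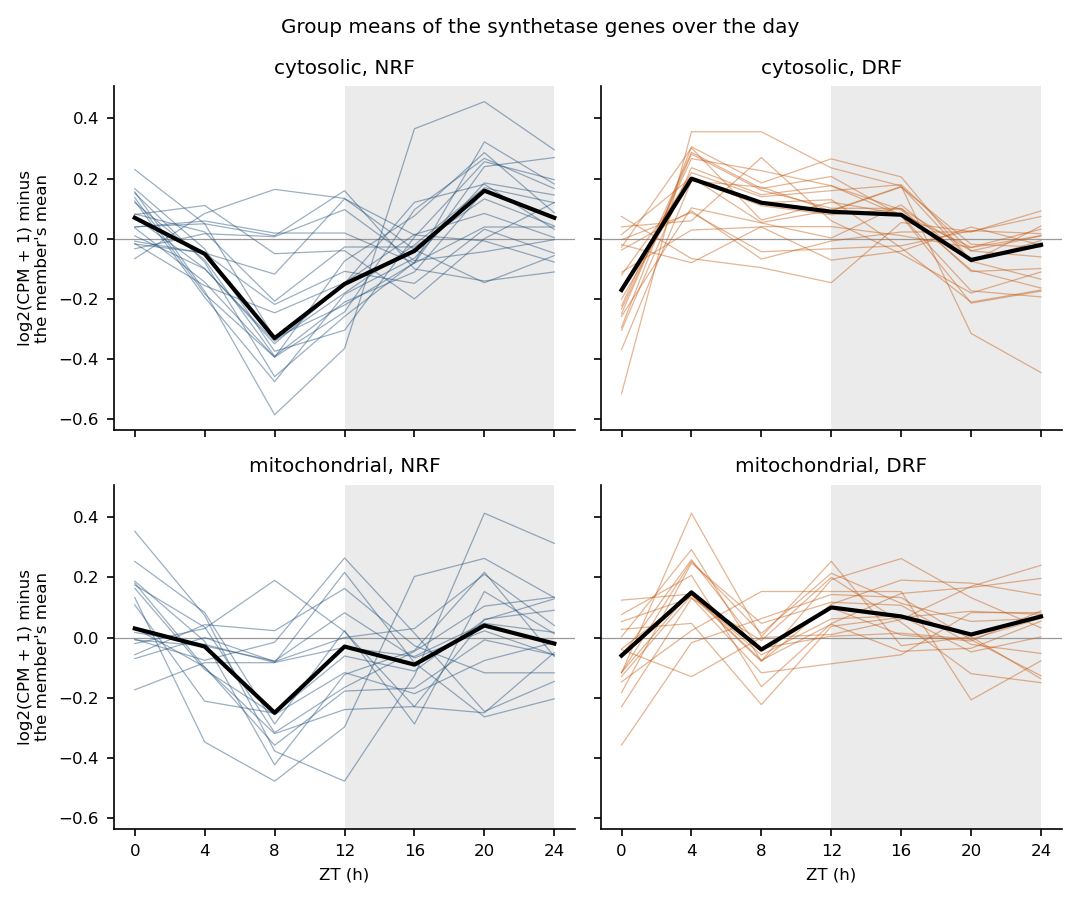
Group means of the members as log2(CPM + 1) relative to the member's own mean over both regimens, against ZT in hours, for cytosolic and mitochondrial genes under NRF and DRF. Thin lines are genes, the black line is the class median and the dark phase is shaded. The cytosolic median runs from -0.33 at NRF ZT8 to 0.16 at NRF ZT20, and under DRF from -0.17 at ZT0 to 0.20 at ZT4.

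Iars, which charges tRNA with isoleucine, had the widest swing of the family. At NRF ZT8 its level was 4.68, 4.71, 4.83 and 4.76 (4.74 ± 0.07, SD, n = 4), and at NRF ZT20 it was 5.79, 5.83, 5.80 and 5.71. Under DRF the level was 5.95, 5.34, 5.57 and 5.85 at ZT8 and 4.83, 5.01, 5.21 and 4.98 at ZT20. The high and low groups did not overlap in either regimen, and they changed places. The rise from ZT8 to ZT20 under NRF was 1.04 (SE 0.124, limma adjusted p = 2.52e-08), or 2.05-fold, and the excess of ZT8 over ZT20 under DRF was 0.67 (SE 0.124, limma adjusted p = 0.00019). The DRF value of Iars was 0.58 when the libraries that stood apart were left out (limma adjusted p = 0.00135). Reads of Iars can be shared with the pseudogene Gm4849, which matches it over 1656 bases.

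Farsa and Yars, the tyrosine enzyme, were also called in both regimens, with smaller differences. Farsa was at 4.32, 4.36, 4.43 and 4.09 at NRF ZT8 and at 4.90, 5.00, 5.01 and 4.92 at ZT20, groups that did not overlap, a difference of 0.66 (SE 0.107, limma adjusted p = 7.89e-06). Under DRF it was at 4.92, 4.55, 5.02 and 4.96 at ZT8 and 4.65, 4.41, 4.68 and 4.31 at ZT20, with ZT8 replicate 2 inside the lower group and a difference of 0.35 (SE 0.107, limma adjusted p = 0.0259) that was 0.33 without the libraries that stood apart (limma adjusted p = 0.069). Farsb, the other subunit of the phenylalanine enzyme, was called under NRF (0.78, SE 0.131, limma adjusted p = 1.13e-05) and not under DRF (0.19, SE 0.131, limma adjusted p = 0.387). Yars was at 5.16, 5.03, 5.36 and 5.17 at NRF ZT8 and at 5.76, 5.98, 5.92 and 5.77 at ZT20, again without overlap (0.68, SE 0.104, limma adjusted p = 2.68e-06). Under DRF Yars was at 5.77, 5.57, 5.91 and 5.97 at ZT8 and 5.20, 5.41, 5.58 and 5.26 at ZT20, where ZT8 replicate 2 lay just below ZT20 replicate 3, with a difference of 0.44 (SE 0.104, limma adjusted p = 0.00297). That call held without the libraries that stood apart (0.45, limma adjusted p = 0.00484) and was lost without replicate 4 and on the deposited scale. Aars, the alanine enzyme, rose from 6.16, 5.90, 6.56 and 6.05 at NRF ZT8 to 6.71, 6.89, 6.87 and 6.83 at ZT20, which did not overlap (0.66, SE 0.140, limma adjusted p = 0.000394). For Aars the DRF difference of 0.26 did not pass (SE 0.140, limma adjusted p = 0.243). Part of the Aars exons (1326 bases) also belongs to Exosc6, and the kit does not mark strand.

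**Figure D3:**
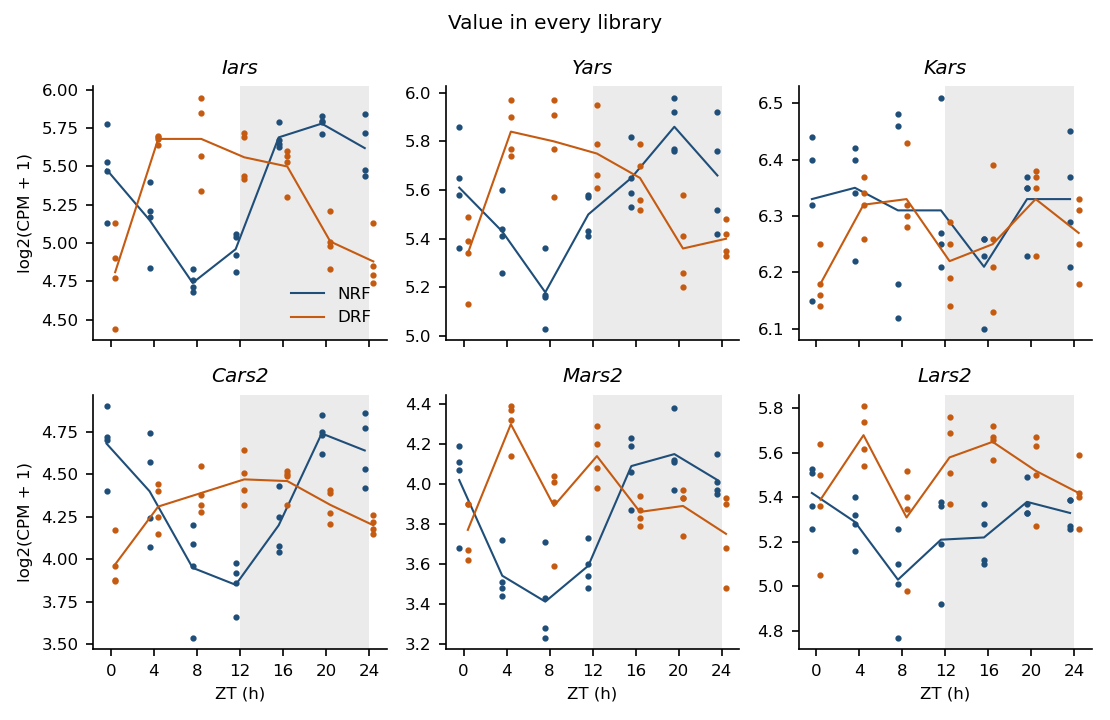
Level of Iars, Yars, Kars, Cars2, Mars2 and Lars2 in every library, as log2(CPM + 1) against ZT in hours, with NRF in blue and DRF in orange, points for mice and lines for group means (n = 4). Iars runs between 4.68 and 5.84 under NRF and between 4.44 and 5.95 under DRF.

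Some cytosolic genes stayed apart from this pattern. Kars, the lysine enzyme, lay between 6.10 and 6.51 under NRF and between 6.13 and 6.43 under DRF, with feeding differences of 0.02 and 0.00 (SE 0.071 each). Sars, the serine enzyme, and Mars, the methionine enzyme, likewise passed no test of a rhythm or of the feeding difference, and Mars overlaps Ddit3 on the opposite strand. Qars, the glutamine enzyme, was the cytosolic gene called lower at NRF ZT20. It was at 6.31, 6.54, 6.27 and 6.53 at NRF ZT8 and 6.01, 6.05, 6.18 and 6.15 at ZT20, groups that did not overlap, and fell by 0.32 (SE 0.089, limma adjusted p = 0.00696). Without replicate 2 the Qars call was lost (-0.26, limma adjusted p = 0.145). Lars, the leucine enzyme, passed the cosine test under NRF with a fitted peak at ZT2.35 but showed no ZT8 to ZT20 difference. Qars, Lars, Vars, Tars, Farsb, Sars, Mars, Rars, Wars, Tars2, Hars2, Wars2, Ears2, Pars2 and Vars2 lie outside the rule for named genes. They were named after their values were seen, as were genes that appear only in lists of calls.

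Vars, the valine enzyme, was the cytosolic gene whose feeding difference was called higher under DRF than under NRF (0.60, SE 0.154, limma adjusted p = 0.0115), a call lost without replicate 1 and without replicate 2. Qars and Lars also had higher values under DRF, by 0.20 and 0.03, and neither passed. It was at 6.37, 5.72, 5.62 and 5.81 at DRF ZT8 and at 5.50, 5.35, 5.47 and 5.41 at ZT20, without overlap, and the highest value was that of the library with epithelial markers. The DRF difference was 0.45 (SE 0.109, limma adjusted p = 0.00409). Without the libraries that stood apart it was 0.285 (limma adjusted p = 0.0213), and without replicate 1 of every group it was 0.307 (limma adjusted p = 0.123). Under NRF the difference was -0.15 (SE 0.109, limma adjusted p = 0.372).

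The 4 mitochondrial genes with the widest swings were called higher at ZT20 than at ZT8 under NRF, and none of them was called for the ZT8 to ZT20 difference under DRF. Cars2, the cysteine enzyme, was at 3.96, 4.09, 4.20 and 3.54 at NRF ZT8 and 4.73, 4.62, 4.85 and 4.75 at ZT20, without overlap (0.79, SE 0.120, limma adjusted p = 2.59e-06). At DRF ZT8 it was at 4.38, 4.28, 4.55 and 4.32 and at ZT20 at 4.27, 4.39, 4.41 and 4.21, groups that overlapped (0.06, SE 0.120, limma adjusted p = 0.818). Under DRF the lowest group of Cars2 was ZT0, at 4.17, 3.88, 3.96 and 3.87, and the highest ZT12, at 4.51, 4.32, 4.41 and 4.64. Mars2, which charges the initiator and elongator tRNA of methionine in the organelle, was at 3.43, 3.23, 3.71 and 3.28 at NRF ZT8 and 4.38, 4.12, 4.11 and 3.97 at ZT20, without overlap (0.73, SE 0.112, limma adjusted p = 2.64e-06). Under DRF the Mars2 values were 4.04, 3.59, 3.91 and 4.01 at ZT8 and 3.93, 3.74, 3.97 and 3.93 at ZT20, which overlapped (-0.01, SE 0.112). Its highest DRF group was ZT4, at 4.37, 4.14, 4.32 and 4.39, so that a ZT8 to ZT20 difference does not describe its whole DRF course. Yars2, the tyrosine enzyme, was at 3.55, 3.69, 3.74 and 3.61 at NRF ZT8 and 4.25, 4.39, 4.32 and 4.18 at ZT20, without overlap (0.64, SE 0.109, limma adjusted p = 1.7e-05), and differed by 0.07 under DRF (SE 0.109, limma adjusted p = 0.758). Sars2, the serine enzyme and one of the lowest members, ranged from 2.65 to 3.76 under NRF and from 2.77 to 3.62 under DRF. Sars2 was called rhythmic in neither regimen over all genes, was called under DRF among genes of at least 1 CPM, and its cosine and sine terms differed between regimens (limma adjusted p = 0.00372). Its NRF difference of 0.44 passed narrowly (SE 0.159, limma adjusted p = 0.0405) and was lost without replicate 1 (limma adjusted p = 0.0902) and without replicate 2 (limma adjusted p = 0.213), and its DRF difference of 0.36 did not (SE 0.159, limma adjusted p = 0.146), and the regimens did not differ by test (-0.08, SE 0.225, limma adjusted p = 0.88).

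Under NRF more members of each class were called higher than lower at ZT20 against ZT8. Higher levels at ZT20 were called for 13 of 19 cytosolic and 9 of 17 mitochondrial genes, with a background of 11.8% (21.8% among genes of at least 1 CPM, with the counts unchanged at 13 and 9). The mitochondrial count was 7 without replicate 1, with Sars2 and Wars2 lost, and 6 without replicate 2, with Lars2 lost as well. Of the cytosolic calls, Cars, Dars and Gars were lost without replicate 2, and Dars also without replicate 4. The Gars call (limma adjusted p = 0.0492) was lost without any 1 replicate number. It was also lost on the deposited scale, with a pseudocount of 0.5 CPM, with median-of-ratios scaling and with voom weights. Lower levels were called for 1 cytosolic gene (Qars) and 2 mitochondrial genes (Pars2, the proline enzyme, and Vars2), with a background of 10.0%. The Qars, Pars2 and Vars2 calls were lost without replicate 2. Pars2 was also lost without replicate 3, and Vars2 without replicate 1, without replicate 3 and on the deposited scale. The median difference was 0.51 over the cytosolic genes (from -0.32 to 1.04), 0.30 over the mitochondrial genes (from -0.44 to 0.79) and -0.01 over all 25936 genes tested. Under DRF fewer members were called. Levels higher at ZT8 than at ZT20 were called for 7 cytosolic genes (Farsa, Iars, Rars, Tars, Vars, Wars and Yars) and 0 mitochondrial genes, with a background of 5.72%, and the same counts of 7 and 0 were found among genes of at least 1 CPM, with a background of 10.8%. Levels lower at ZT8 were called for 0 cytosolic and 4 mitochondrial genes (among them Hars2 and Tars2), with a background of 5.80%. The median DRF difference was 0.18 over the cytosolic genes, with 16 of 19 above 0, and -0.04 over the mitochondrial genes, with 13 of 17 below 0, beside 0.01 over all genes. The difference between the classes was not tested. Without the libraries that stood apart the DRF calls were 4 higher cytosolic genes (Iars, Vars, Wars and Yars) and 2 lower mitochondrial genes, with Hars2 at -0.29 (limma adjusted p = 0.00507). Without 1 replicate number 2 to 4 cytosolic genes were called higher and 2 to 4 mitochondrial genes lower. On the deposited scale 2 cytosolic genes were called higher.

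Cytosolic and mitochondrial genes for the same amino acid were set side by side, in 14 pairs without the phenylalanine genes. Their feeding differences had opposite signs in 10 pairs under DRF and in 3 under NRF, many of them near 0, and both genes were called in opposite directions in 2 pairs under DRF (isoleucine and threonine) and in 0 under NRF. The other 4 pairs had the same sign under DRF, among them Wars and Wars2 (0.27 and 0.11) and Yars and Yars2 (0.44 and 0.07). Iars2 was at 6.64, 7.00, 7.18 and 7.26 at DRF ZT8 and at 7.14, 7.60, 7.41 and 7.26 at ZT20, overlapping groups with the lowest value in the library with epithelial markers, and fell by 0.34 at ZT8 (SE 0.104, limma adjusted p = 0.0265), while Iars was higher by 0.67. The isoleucine pair also had opposite signs under NRF, at -0.18 for Iars2 (SE 0.104, limma adjusted p = 0.237) against 1.04 for Iars. The Iars2 value was -0.21 when the libraries that stood apart were left out (limma adjusted p = 0.149). Tars, the threonine enzyme of the cytosol, was at 5.93, 5.52, 5.92 and 5.83 at DRF ZT8 and at 5.51, 5.50, 5.73 and 5.46 at ZT20, higher by 0.25 (SE 0.086, limma adjusted p = 0.0463) with ZT8 replicate 2 inside the lower group. Tars2, its mitochondrial counterpart, was at 4.91, 4.79, 5.19 and 5.09 at DRF ZT8 and 5.13, 5.33, 5.36 and 5.20 at ZT20, lower by 0.26 (SE 0.082, limma adjusted p = 0.0311), with 1 value of ZT8 above the lowest of ZT20. With those libraries left out the values were 0.21 for Tars (limma adjusted p = 0.154) and -0.23 for Tars2 (limma adjusted p = 0.0884). Under NRF both threonine genes rose at ZT20, Tars by 0.63 (SE 0.086, limma adjusted p = 3.64e-07) and Tars2 by 0.37 (SE 0.082, limma adjusted p = 0.000556). Hars2, the histidine enzyme, was at 4.77, 4.81, 4.83 and 4.85 at DRF ZT8 and 5.11, 5.15, 5.11 and 5.10 at ZT20, without overlap, and was lower by 0.30 (SE 0.068, limma adjusted p = 0.00187), while Hars, its cytosolic counterpart, was not called under DRF (0.18, SE 0.103, limma adjusted p = 0.288). Hars and Hars2 lie head to head and share 195 bases of exon, and Iars2 shares 2034 bases with Rab3gap2 on the opposite strand.

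The feeding difference itself was compared between regimens, as the ZT8 over ZT20 difference under DRF minus the ZT20 over ZT8 difference under NRF. It differed for 3 cytosolic genes (Farsb, Tars and Vars) and 7 mitochondrial genes (Cars2, Ears2, Hars2, Lars2, Mars2, Tars2 and Yars2), with a background of 7.48%. That background is a share of all genes, and none among genes of at least 1 CPM is given. The signed value was lower under DRF for all 10 except Vars. For Hars2 it went from 0.13 under NRF to -0.30 under DRF, the larger in size, and for Tars2 from 0.37 to -0.26. The largest differences were -0.74 for Mars2 (SE 0.158, limma adjusted p = 0.00249), -0.73 for Cars2 (SE 0.170, limma adjusted p = 0.00578) and -0.63 for Tars2 (SE 0.116, limma adjusted p = 0.00046). Without the libraries that stood apart they were -0.79, -0.73 and -0.61, and all 3 still passed. The median was -0.24 over the cytosolic genes and -0.25 over the mitochondrial genes, beside 0.01 over all genes. Without replicate 2 of every group limma called 0 cytosolic and 0 mitochondrial genes, and without the libraries that stood apart it called 2 and 6, with Farsb at -0.54 (adjusted p = 0.0839) and Lars2 at -0.44 (adjusted p = 0.0574).

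**Figure D4:**
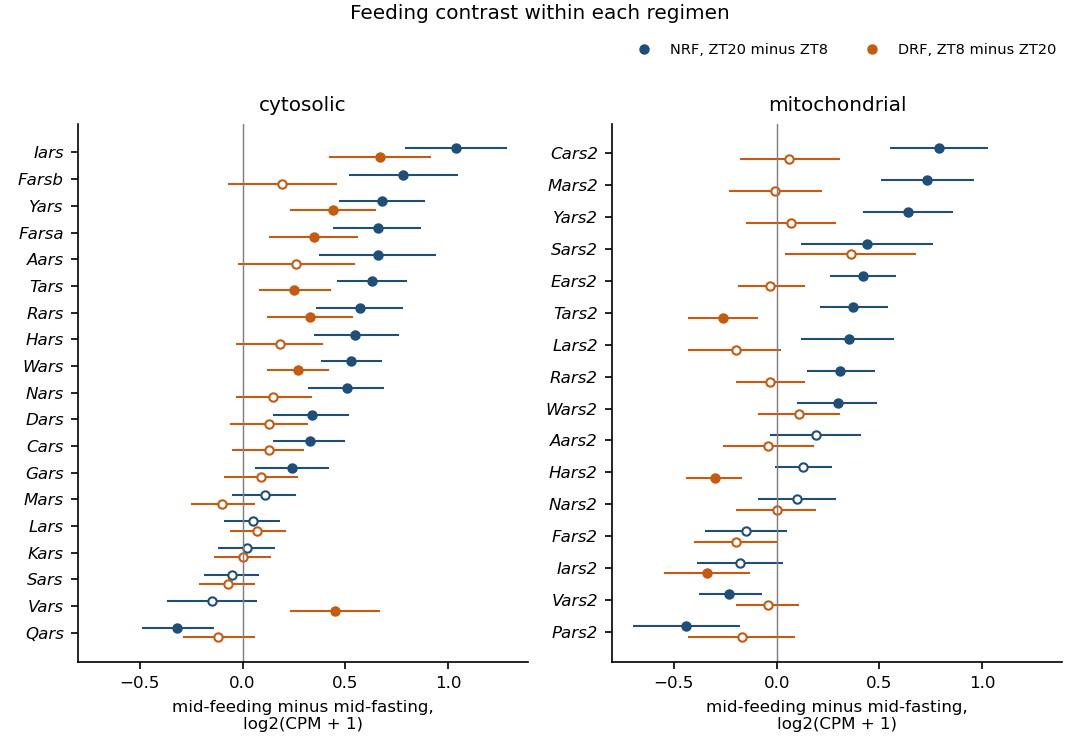
Feeding-phase minus fasting-phase difference of the members on the log2(CPM + 1) scale, for NRF (ZT20 minus ZT8, blue) and DRF (ZT8 minus ZT20, orange), with lines for 95% confidence intervals and filled points for an adjusted p under 0.05 in limma. Iars has 1.04 and 0.67, while Cars2 (0.79 and 0.06) and Mars2 (0.73 and -0.01) lie near 0 under DRF.

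Peak times were inverted between regimens for the cytosolic genes that cycled in both. By a cosine fit with a 24-h period in limma, 14 cytosolic genes cycled under NRF, and 12 of them peaked in the dark, between ZT19.6 and ZT22.3, the exceptions being Lars and Qars. Under DRF 11 cycled, and 10 peaked in the light, between ZT7.79 and ZT10.5, the exception being Qars. Among the mitochondrial genes 12 cycled under NRF, of which 7 peaked between ZT19.8 and ZT22.8 and 5 (among them Iars2, Pars2 and Vars2) peaked in the light. Under DRF 5 cycled, and only Wars2, at ZT10.7, peaked in the light, with Cars2 just after lights off at ZT12.5. These counts per regimen, for both classes, have no share of all genes beside them and are given as a description. A cosine in both regimens was called for 10 cytosolic and 3 mitochondrial genes, with a background of 17.1%, and of these all 10 and all 3 had a shift of at least 8 h, where 73.4% of the 4442 genes that cycled in both did. The shift differed from 0 for the same counts, 10 and 3, with a background of 94.8%. Both mitochondrial counts were below 3 on the deposited scale, without ZT24 and without any 1 replicate number, and were 5 with at least 1 CPM. Iars peaked at ZT20.1 (SE 0.409 h) under NRF and at ZT9.78 (SE 0.516 h) under DRF, a shift of -10.3 h (SE 0.658). Qars kept its opposite course in both regimens, with peaks at ZT8.42 and ZT21.3. Cars2 peaked at ZT22.5 and ZT12.5, a shift of -10.0 h (SE 1.11), so that its peak came later than that of Iars in both regimens.

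**Figure D5:**
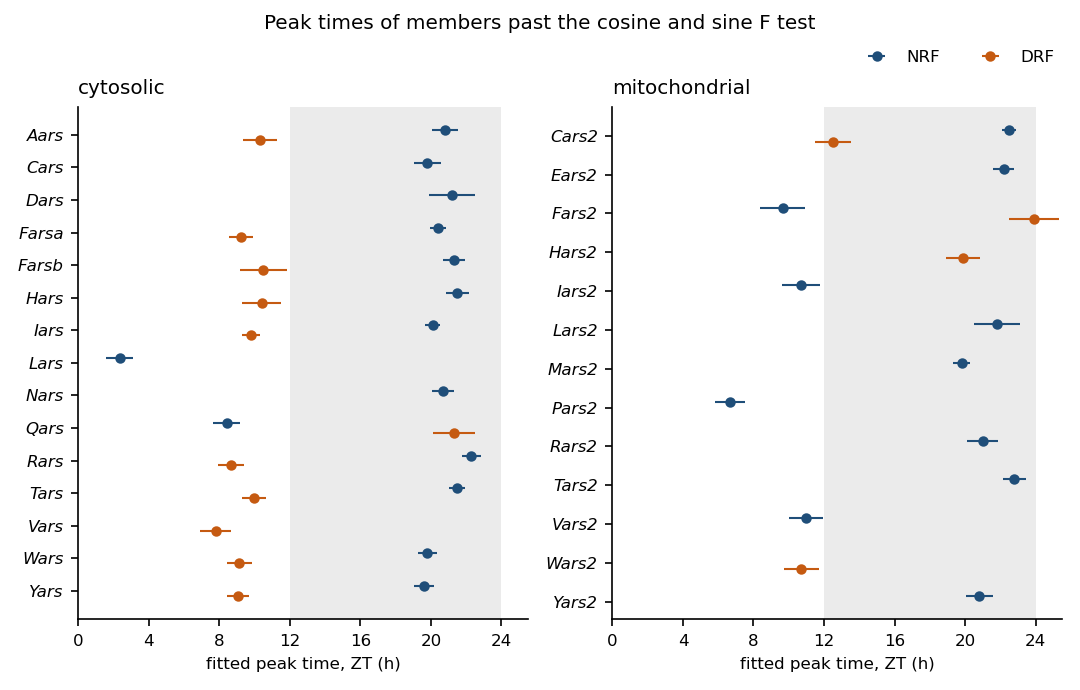
Fitted peak time in hours of ZT of the members that passed the cosine test, with NRF in blue, DRF in orange, bars of 1 SE and the dark phase shaded, cytosolic genes left and mitochondrial genes right. Cytosolic genes gather between ZT19.6 and ZT22.3 under NRF and between ZT7.79 and ZT10.5 under DRF. Qars lies outside both ranges and Lars, at ZT2.35, outside the NRF range.

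The cosine and sine terms together differed between regimens for 15 of 19 cytosolic and 14 of 17 mitochondrial genes, with a background of 36.0%. The backgrounds in this comparison and in that of amplitudes are shares of all genes, without a share among genes of at least 1 CPM. The cytosolic genes outside this count were Kars, Mars, Sars and Vars, and the mitochondrial ones Hars2, Lars2 and Nars2. The amplitude was lower under DRF for 0 cytosolic and 2 mitochondrial genes (Cars2 and Ears2), with a background of 1.10%, and higher for 0 genes of either class, with a background of 0.339%. The amplitude of Cars2 fell by 0.268 (Wald test, adjusted p = 0.014) and that of Ears2, the glutamate enzyme, by 0.181 (Wald test, adjusted p = 0.0266). Both calls were lost on the deposited scale and without any 1 replicate number. The median amplitude went from 0.226 under NRF to 0.152 under DRF over the cytosolic genes and from 0.161 to 0.107 over the mitochondrial genes, and over genes of at least 1 CPM from 0.163 to 0.144.

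The times of the highest and lowest group means are given as a description. Under NRF 12 of 19 cytosolic genes had their highest group mean at ZT20 and 14 their lowest at ZT8. Under DRF 14 of 19 were highest at ZT4 and 12 lowest at ZT0, a group that holds 1 of the libraries that stood apart. The ZT24 libraries came from other mice at the same clock time, and the DRF ZT24 mean minus the ZT0 mean had a median of 0.07 over the cytosolic genes, from -0.14 to 0.34. Farsa was at 4.47 and 4.50 on average at ZT0 and ZT24, Yars at 5.34 and 5.40, and Rars at 5.09 and 5.12. Of the mitochondrial genes 10 of 17 were also highest at DRF ZT4, while 7 were lowest at ZT0 and 7 at ZT8. Iars was at 4.90, 4.77, 4.44 and 5.13 at DRF ZT0 and at 5.68, 5.64, 5.69 and 5.70 at ZT4, groups that did not overlap. Its ZT24 libraries were at 4.74, 4.79, 4.85 and 5.13, inside the range of ZT0. Farsb, the other phenylalanine subunit, was at 5.21, 5.22, 5.31 and 5.20 at DRF ZT0 but at 5.28, 5.70, 5.60 and 5.72 at ZT24, where only replicate 1 lay within the ZT0 range. Lars2, the leucine enzyme, was at 5.62, 5.54, 5.74 and 5.81 at DRF ZT4 and at 4.98, 5.40, 5.35 and 5.52 at ZT8, which did not overlap, with the lowest value in the library with epithelial markers. These choices of groups follow their means, and no test was run on them.

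Set against NRF at the same clock time, many members of both classes were higher under DRF from ZT4 to ZT12. The backgrounds by time point are shares of all genes, and none among genes of at least 1 CPM is given. At ZT4, 10 cytosolic and 7 mitochondrial genes were higher under DRF (background 10.4%), and 1 (Lars) and 0 were lower (background 9.04%). At ZT8, 13 and 5 were higher (background 9.00%), and 1 (Qars) and 0 were lower (background 7.47%). At ZT12, 8 and 5 were higher (background 8.76%), and 1 (Qars) and 1 (Vars2) were lower (background 7.38%). In the later dark phase and at lights on the calls of cytosolic genes were lower under DRF. At ZT16 only 1 cytosolic (Lars) and 3 mitochondrial genes (among them Lars2) were higher (background 5.00%), and 0 and 0 were lower (background 4.97%). At ZT20, 0 and 3 (among them Pars2) were higher (background 6.71%), and 6 and 2 were lower (background 6.41%). At ZT24, 0 and 2 were higher (background 6.09%), and 4 and 1 were lower (background 5.24%). At ZT0, 0 and 0 were higher (background 5.41%), and 8 and 4 were lower (background 5.06%). Without the libraries that stood apart the ZT8 calls were 13 and 9 higher and 1 and 0 lower, and the ZT0 calls were 0 and 2 higher and 6 and 2 lower. The ZT12 calls were then 9 and 5 higher and 1 and 2 lower, and the ZT16 calls 2 and 4 higher and 0 and 0 lower. Iars was among the genes called at ZT0, ZT4, ZT8, ZT12, ZT20 and ZT24, with a limma difference of 0.93 at ZT8 (adjusted p = 6.11e-07) and of -0.77 at ZT20 (adjusted p = 1.5e-05).

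Averaged over the day, DRF levels were higher for several genes and lower for none. The mean was called higher under DRF for 5 cytosolic genes (Aars, Cars, Gars, Hars and Nars) and 7 mitochondrial genes (among them Aars2, Lars2, Mars2, Rars2 and Tars2), with a background of 11.4%, and lower for 0 of either class, with a background of 10.3%. These backgrounds are shares of all genes. No share among genes of at least 1 CPM is given here, and it was the higher one where both were taken. The median difference was 0.08 over each class, beside a median of 0 over all genes, with 17 of 19 cytosolic and 15 of 17 mitochondrial genes above 0. Lars2 ran from 4.77 to 5.53 under NRF (median 5.30) and from 4.98 to 5.81 under DRF (median 5.53), ranges that overlapped, and its mean was higher by 0.26 (SE 0.048, limma adjusted p = 3.7e-05). Aars2, the alanine enzyme, was higher by 0.20 (SE 0.046, limma adjusted p = 0.00123), and Rars2 by 0.11 (SE 0.038, limma adjusted p = 0.0255). The Rars2 call was lost without replicate 1 (0.10, limma adjusted p = 0.118), without replicate 3, without replicate 4 and on the deposited scale, and the Mars2 call was lost under the same 4 settings (0.13 without replicate 1, limma adjusted p = 0.156). Among the cytosolic genes Aars was higher by 0.19 (SE 0.057, limma adjusted p = 0.00964), Hars by 0.17 (SE 0.042, limma adjusted p = 0.00169) and Gars by 0.17 (SE 0.037, limma adjusted p = 0.000565). The Aars call was lost without replicate 1 (0.16, limma adjusted p = 0.0792) and on the deposited scale, and the Nars call without replicate 4 and on the deposited scale. Gars ran from 6.03 to 6.61 under NRF (median 6.37) and from 6.22 to 6.91 under DRF (median 6.53). Nars2, the mitochondrial asparagine enzyme, passed no test, with ranges of 3.46 to 3.94 and 3.35 to 4.01. Without the libraries that stood apart 8 cytosolic and 8 mitochondrial genes were called higher. Summed markers of cell types also differed between the regimens in their medians, with overlapping ranges. The 6 adipocyte markers were at 15070 to 25876 CPM under NRF (median 19415) and 8477 to 29642 CPM under DRF (median 22352), and the 3 proliferation markers at 6.71 to 42.0 CPM (median 21.6) and 8.99 to 211 CPM (median 43.2). The medians of the red cell markers were 240 and 394 CPM, and those of the macrophage markers 212 and 176 CPM. The part of these markers in the mean differences was not tested.

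Genes that work beside the synthetases are read against the shares of all genes called, which were 11.8% higher and 10.0% lower at NRF ZT20, 5.72% higher at DRF ZT8, and 11.4% higher and 10.3% lower in mean under DRF. Of 8 genes of the synthetase complex and related enzymes, 2 rose at NRF ZT20 (Eef1e1 and Aimp2) and 1 was higher at DRF ZT8 (Eef1e1). Eef1e1, a small scaffold of the multi-synthetase complex, differed by 1.40 under NRF (SE 0.182, limma adjusted p = 1.27e-07) and by 0.78 under DRF (SE 0.182, limma adjusted p = 0.00266), and its NRF value lay above that of every synthetase. Aimp2, another scaffold, differed by 0.59 (limma adjusted p = 7.04e-05) and 0.21 (limma adjusted p = 0.241). Eprs, at a mean of 131 CPM, differed by 0.02 and -0.03 (SE 0.076 each) and passed no test of a rhythm. Of 7 partners of mitochondrial aminoacylation and translation, 4 rose at NRF ZT20 (Gatc, Gfm1, Mtfmt and Qrsl1) and 1 was higher at DRF ZT8 (Qrsl1), and 5 had a higher mean under DRF. Qrsl1, a subunit of the enzyme that converts mischarged glutamate to glutamine on mitochondrial tRNA, differed by 1.08 (SE 0.157, limma adjusted p = 1.14e-06) and 0.59 (SE 0.157, limma adjusted p = 0.00895). Of 5 cytosolic elongation factors, 0 rose in either regimen, 1 (Eef2, which moves the ribosome along) fell by 0.43 at NRF ZT20 (SE 0.153, limma adjusted p = 0.0341), and 3 had a lower mean under DRF. In lists this short a count of 1 is not read as above those shares.

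Of 18 genes of ATF4 and the integrated stress response, 3 rose at NRF ZT20 (Atf4, Mthfd2 and Slc3a2) and 1 fell (Sesn2), and 3 were higher at DRF ZT8 (Atf4, Slc3a2 and Slc7a5), beside backgrounds of 11.8% and 5.72% for higher levels in these comparisons. Among genes of at least 1 CPM, which include all 18, the counts were 5 and 3 higher, beside 21.8% and 10.8%. Atf4 itself differed by 0.83 under NRF (SE 0.175, limma adjusted p = 0.000345) and by 0.59 under DRF (SE 0.175, limma adjusted p = 0.0205), with fitted peaks at ZT18.8 and ZT6.17. Slc3a2, the heavy chain of amino acid transporters, differed by 0.69 (limma adjusted p = 0.00287) and 0.99 (limma adjusted p = 0.000112), and Slc7a5, its leucine-carrying partner, was 1.23-fold higher under NRF (limma adjusted p = 0.481) and 2.28-fold higher under DRF (limma adjusted p = 0.00132). Asns, the asparagine synthetase, had fitted peaks at ZT17.1 and ZT5.11 (limma adjusted p = 0.000122 and 0.00647 for the cosine test), and Ddit3 at ZT18.9 and ZT8.38 (limma adjusted p = 0.0398 and 0.0475). Psat1 passed the same test in both regimens with earlier peaks, at ZT12.8 and ZT0.513 (limma adjusted p = 0.00012 and 0.00974). By JTK_CYCLE and Lomb-Scargle Asns and Psat1 were called under NRF only. Ddit3 was called in neither regimen by that test (adjusted p = 0.679 and 0.5). Chac1, a glutathione-degrading enzyme, peaked at ZT13.3 under NRF and ZT0.333 under DRF, and Sesn2, an inhibitor of mTORC1, fell by 0.96 at NRF ZT20 (SE 0.250, limma adjusted p = 0.00333). Of 6 genes of the MYC axis, 2 rose at NRF ZT20 (Max and Odc1), 1 fell (Myc), and 3 were higher at DRF ZT8 (Max, Ncl and Odc1). Max, the dimer partner of MYC, differed by 0.57 and 0.53 (SE 0.110 each, limma adjusted p = 9.7e-05 and 0.000677), while Myc fell by 0.62 at NRF ZT20 (SE 0.205, limma adjusted p = 0.0226) and differed by 0.48 under DRF (SE 0.205, limma adjusted p = 0.129).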

How the data were processed

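RNA of mouse VAT was sequenced from polyA libraries whose kit does not mark strand, in 56 libraries (14 groups of 4 mice). Per the submitters' processing notes reads were aligned to mm10 with HISAT2 2.0.5 and counted with featureCounts 1.5.0-p3. The values the authors deposited, named TPM, are a score, by their steps log2(1 + CPM) divided by exon length and rescaled per library. Whole reads were recovered from these steps. The annotated exon length gave whole reads for 25013 of 25939 genes. A length inferred from the values was used for 901, 22 were too abundant to test, and 3 were not resolved. Of 1424971 low values in the genes kept, 100% were whole within 0.02, which largely follows from the rule for keeping a gene. Library totals were 30913791 to 40932442 reads, and every per-sample column was mapped (0 left over). Levels are log2(CPM + 1), with a pseudocount of 1 CPM. A count model was not run. The main test was limma 3.58.1 (R 4.3.3) over all genes and all 14 groups, for group contrasts and for a 24-h cosine with mean, amplitude and phase per regimen. Differences in amplitude and phase between regimens were tested by a Wald test on the least-squares cosine fit, without the shared estimate of spread that limma uses. Rhythms were called on the deposited values by JTK_CYCLE and Lomb-Scargle, whose p-values were joined with Fisher's method after MetaCycle, in Python 3.11.15 (scipy 1.17.1). All p-values were adjusted by Benjamini-Hochberg over all genes tested, with a threshold of 0.05 (two-sided). Shares among genes of at least 1 CPM were taken only for the 24-h rhythm and for higher levels in the feeding contrasts. There they were above the shares of all genes.

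The feeding contrast set ZT20 against ZT8 under NRF and ZT8 against ZT20 under DRF. Named genes were, per class, the 4 with the widest fitted swing (mean of both regimens, whether or not a rhythm was called), the 3 with the largest difference in mean level, the 2 highest and 2 lowest in CPM per kilobase, and Gars and Kars. Up to 4 genes per partner list were named by swing, and others because they passed a test. The members and all gene lists were chosen with earlier results of these data known. Counts cover all members, and 1 member is not reported here by name or in the figures. Scripts were tested on simulated data. Alternatives were other rhythm tests, a minimum of 1 CPM, a pseudocount of 0.5 CPM, median-of-ratios scaling, the deposited scale, voom weights, linear CPM for levels, leaving out ZT24, 1 replicate number or the libraries that stood apart, and the replicate number as a block. Overlapping and near-identical genes were found by annotation and blastn 2.17.0 (at least 95% identity over at least 100 bases).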

Additional observations from a re-analysis of the deposited data

Results flagged for a closer look

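The highest or lowest mouse of a group of 4 was checked against the others for 18 named members, in 252 groups, and 7 groups had a mouse far from the rest, fewer than the 12.6 that chance gives at about 1 in 20. Among the cytosolic genes these were low values, 6.14 for Gars at NRF ZT16 replicate 1, 5.58 for Hars at NRF ZT0 replicate 1, 6.23 for Kars at NRF ZT20 replicate 1 and 6.43 for Nars at DRF ZT24 replicate 1. Among the mitochondrial genes Cars2 was low at 4.32 and Yars2 low at 4.03 in the same library, DRF ZT16 replicate 3. Nars2 was low at 3.55 in DRF ZT20 replicate 1. All values are log2(CPM + 1), and none of these libraries is one of those with epithelial markers.

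The feeding difference was unequal between regimens in a limma interaction test for 10 members. DRF minus NRF it was -0.59 for Farsb, -0.38 for Tars and 0.60 for Vars among the cytosolic genes. It was -0.73 for Cars2, -0.44 for Ears2, -0.43 for Hars2, -0.55 for Lars2, -0.74 for Mars2, -0.63 for Tars2 and -0.57 for Yars2 among the mitochondrial genes. The value for Vars is the single positive one, and the highest of its DRF ZT8 libraries is the one with 505 CPM of epithelial markers.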

How the results depend on the processing

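Of 366 counts of members called under an alternative, 305 stayed within 1.5 times the reported count, and of 650 values of 58 single-member calls 557 kept the call, 93 lost it and 0 reversed. The NRF rhythm of mitochondrial genes was called for 12 by the limma F test, which has no share of all genes beside it within a regimen. The DRF rhythm was called for 11 cytosolic and 5 mitochondrial genes by that test, for 2 and 0 without ZT24, and for 0 to 2 and 0 to 1 without 1 replicate number. On the deposited scale the counts were 3 cytosolic and 4 mitochondrial genes for a higher mean, 1 mitochondrial gene for the phase shift (differing from 0, and at least 8 h), 0 for a lower mitochondrial amplitude, 1 mitochondrial gene lower at NRF ZT20 and 2 cytosolic genes higher at DRF ZT8. The mitochondrial phase shift counts (differing from 0, and at least 8 h) were 5 with at least 1 CPM, 1 without ZT24 and 1 without any 1 replicate number. Without the libraries that stood apart, 8 cytosolic genes had a higher mean, 4 cytosolic genes were higher and 2 mitochondrial genes lower at DRF ZT8. Without 1 replicate number, lower mitochondrial amplitudes were 0 in each case, time point calls were 18 to 26 higher and 7 to 21 lower for cytosolic genes and 13 to 23 higher and 2 to 9 lower for mitochondrial genes (reported 32, 21, 25 and 8), lower calls at NRF ZT20 were 0 to 1 cytosolic and 0 to 2 mitochondrial, DRF ZT8 calls were 2 to 4 higher cytosolic and 2 to 4 lower mitochondrial, and regimen differences in the feeding contrast were 0 to 2 cytosolic and 0 to 7 mitochondrial. The 0 counts of the last came without replicate 2, where Mars2 was at -0.64 (limma adjusted p = 0.0829) and Tars2 at -0.50 (limma adjusted p = 0.101). Leaving out a replicate number also leaves fewer samples, and the cause of the other changes was not tested. The replicate numbers do not pair the mice (median correlation of deviations 0.0334 for the same number and -0.0102 for other numbers, range -0.66 to 0.557). With the replicate block in limma 13 cytosolic and 9 mitochondrial genes were higher at NRF ZT20, 7 and 0 were higher at DRF ZT8, and no single-member call was lost. The median over all genes of the DRF minus NRF mean moved by at most 0.004 under any alternative. The lowest members, near 165 reads, limit what a small difference can show.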
